A study of Homo sapiens with 61 samples.

Results

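Neuropeptides and granins are the cargo of dense core vesicles. 10 genes of this kind were followed through neurons labelled as cortical and made from human stem cells, with and without the microtubule drug vincristine. They comprise 6 neuropeptide genes (GAL, VIP, NPY, SST, ADCYAP1 and TAC1) and 4 granin genes (VGF, SCG2, CHGA and CHGB). The genes were chosen by name, with earlier results of these data known. All 10 were found by identifier among the 58440 genes of each count table. The study holds 61 RNA libraries in 14 groups, from 7 lines of neurons in 2 experiments. All cells came from WTC11 (a widely used human iPSC line, that is, induced pluripotent stem cells) and became neurons through forced expression of the transcription factor NGN2. In experiment 1 every line carried a doxycycline-driven NGN2 cassette, and the lines were wild type (WT), DLK KO, LZK KO or lacked both genes (labelled DLK LZK double KO, here double KO), where KO stands for knockout and DLK and LZK are related kinases. In experiment 2 all cells expressed the CRISPR interference machinery and received by lentivirus a guide RNA (gRNA) against the transcription factor ATF2, against JUN, or a scrambled Control gRNA. On day 14, cultures received 5 nM vincristine or the vehicle DMSO (called untreated here) for 16 hours. Each group of experiment 1 has 4 libraries. Each group of experiment 2 has 5, except ATF2 gRNA with vincristine, which has 4. The labels do not say whether replicates are separate differentiations, so p-values measure the spread between these samples, which may be technical, and whether a knockout line is 1 clone is not given in the sources used here.

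Neuropeptides are made as long precursors, sorted into dense core vesicles, cut there by prohormone convertases and released on stimulation to act on G protein-coupled receptors. Granins are acidic proteins that help to form these vesicles and are themselves cut into peptides. Several of the genes are textbook targets of cyclic AMP and activity signals, which act through promoter elements bound by CREB and ATF proteins. After axon injury, sensory neurons are known to switch on peptide genes such as GAL, VIP, NPY and ADCYAP1. DLK and LZK signal through the JNK kinases, and JUN and ATF2 are among the factors that JNK phosphorylates.

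Promoter windows, from 250 bases before to 50 bases after the annotated start, were found for 7 of the 10 genes in RefSeq (GRCh38.p14). GAL, SCG2 and CHGB had no entry. Each window was searched on both strands for the full cyclic AMP response element TGACGTCA, its variant TTACGTCA, the AP-1 site TGANTCA and the shorter core TGACG, which the full element contains. The full element was found in 3 of the 7 genes, SST, VGF and CHGA, against 1.85% of the 35116 windows in the table. They are printed because these 3 genes did not move alike with ATF2 gRNA, and the capitals mark the full element. The SST window is chr3:187670345-187670644 (minus strand), the VGF window chr7:101165520-101165819 (minus strand) and the CHGA window chr14:92922900-92923199 (plus strand).
SST: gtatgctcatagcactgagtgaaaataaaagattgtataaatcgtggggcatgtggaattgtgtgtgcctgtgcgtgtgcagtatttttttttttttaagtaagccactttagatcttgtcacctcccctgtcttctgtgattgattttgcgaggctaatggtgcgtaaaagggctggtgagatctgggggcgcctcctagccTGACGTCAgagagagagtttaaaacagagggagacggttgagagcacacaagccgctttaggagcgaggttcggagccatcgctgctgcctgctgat
VGF: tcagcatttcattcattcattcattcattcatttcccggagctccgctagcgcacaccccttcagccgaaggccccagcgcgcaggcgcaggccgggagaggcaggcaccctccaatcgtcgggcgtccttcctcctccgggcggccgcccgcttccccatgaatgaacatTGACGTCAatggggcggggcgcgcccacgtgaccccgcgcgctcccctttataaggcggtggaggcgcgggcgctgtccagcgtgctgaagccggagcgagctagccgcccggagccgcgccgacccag
CHGA: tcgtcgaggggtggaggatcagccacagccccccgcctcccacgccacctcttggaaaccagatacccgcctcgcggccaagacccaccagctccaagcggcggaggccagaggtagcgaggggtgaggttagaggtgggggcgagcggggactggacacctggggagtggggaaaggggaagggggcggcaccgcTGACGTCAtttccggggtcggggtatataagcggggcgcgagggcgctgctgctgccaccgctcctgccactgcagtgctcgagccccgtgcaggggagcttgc
The element lay 47 to 40 bases before the start in SST, 79 to 72 before it in VGF and 54 to 47 before it in CHGA. In VIP (chr6:152750547-152750846, plus strand) the core is present on each strand, in capitals here, without the full element.
VIP: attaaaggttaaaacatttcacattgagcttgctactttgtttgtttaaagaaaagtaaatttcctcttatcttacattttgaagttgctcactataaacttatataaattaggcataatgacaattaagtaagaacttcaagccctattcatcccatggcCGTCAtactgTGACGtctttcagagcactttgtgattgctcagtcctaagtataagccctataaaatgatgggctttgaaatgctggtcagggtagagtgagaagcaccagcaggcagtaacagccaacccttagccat
The core was also found in ADCYAP1 and TAC1, which makes 6 of the 7 genes, against 24.6% of all windows. ADCYAP1 had windows at different starts, with the core in chr18:905116-905415 and not in chr18:904621-904920. A gene is counted if any of its windows holds the motif, while the shares are per window. The AP-1 site was found in 0 of the 7 (7.71% of all windows) and the variant in 0 of the 7 (0.416% of all windows). A match is only a match of letters, and binding was not measured.

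Total counts ran from 8.41 to 14.6 M (mega) per library in experiment 1, while experiment 2 had 38.9 to 88.4 M, so weakly expressed members are better measured in experiment 2. Levels are CPM (the unit of edgeR's cpm function, counts scaled to a common library total) after TMM scaling. The 2 tables were scaled separately, so tests stay within an experiment. WT vincristine replicate 4 stands apart, with the lowest correlation to the rest of its group (0.981) and 10.3% mitochondrial counts against 6.11% to 7.56% in the other 3 libraries. In the single knockout and guide lines the targeted genes were lower. MAP3K12 (DLK) stood at 91 ± 2.23 CPM (SD, n = 4) in untreated WT and 26.3 ± 2.48 in DLK KO, and MAP3K13 (LZK) at 99.1 ± 1.93 and, in LZK KO, 31.9 ± 1.96. ATF2 stood at 129 ± 18.6 CPM (SD, n = 5) with Control gRNA and 0.526 ± 0.294 with ATF2 gRNA, and JUN at 88.5 ± 6.97 and, with JUN gRNA, 2.87 ± 0.447. The cells carry neuron markers (6 of 6 over 1 CPM, summed 3933 to 6850 CPM). Of 5 cortical markers 3 to 4 were over 1 CPM in every group, summed 66.2 to 106 CPM in experiment 1 and 64.7 to 89.5 in experiment 2, while TBR1 was at most 2.82 CPM. Of 6 peripheral or sensory neuron markers 4 to 6 were over 1 CPM, summed 151 to 475 CPM and 285 to 600.1, led by POU4F1, which stood at 435 ± 14.8 CPM in untreated WT. In bulk RNA, fewer cells of a type and less RNA per cell cannot be told apart.

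The granins were the highly expressed members, and most peptide genes were low. Per kilobase of gene length, untreated WT neurons held 82.1 ± 6.01 CPM of CHGA, 63.4 ± 4.96 of SCG2, 39.6 ± 3.1 of VGF and 39.4 ± 0.704 of CHGB (SD, n = 4). VGF and CHGB did not differ beyond their spread. ADCYAP1, the precursor of PACAP, followed at 9.04 ± 1.07, TAC1, the precursor of substance P, at 4.44 ± 0.401, galanin (GAL) at 0.799 ± 0.3 and somatostatin (SST) at 0.402 ± 0.269 CPM per kilobase. With Control gRNA the order began with SCG2 (151 ± 3.32 CPM per kilobase, SD, n = 5), then CHGA (96.2 ± 1.53), CHGB (38.5 ± 1.13) and VGF (22.2 ± 2.61). With ATF2 gRNA, SST (267 ± 22.8 CPM per kilobase) stood level with SCG2 (268 ± 8.42), both above all other members.

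Of the 10 genes, 8 passed the low-count filter in experiment 1 and 9 in experiment 2. VIP failed in both, with 0 to 3 counts per library in experiment 1 and 0 to 19 in experiment 2. Neuropeptide Y (NPY) failed in experiment 1. There it reached 3 counts or more only in DLK KO, with 5 to 14 counts per untreated library and 3 to 8 with vincristine, against 0 to 2 in the other 3 lines. In experiment 2 NPY reached 0 to 18 counts in the untreated ATF2 gRNA libraries and 0 to 24 with vincristine, at most 3 with Control gRNA and at most 9 with JUN gRNA. NPY passed the filter there only through its ATF2 gRNA libraries, and the 5 untreated Control gRNA libraries held 4 counts in all. Its untreated difference between ATF2 gRNA and Control gRNA, 3.43 ± 1.43 on the log2 scale, missed the threshold (adjusted p = 0.0514). So few counts cannot give its size. The difference passed with voom and quality weights (3.03, adjusted p = 0.0259), without ATF2 gRNA untreated replicate 5 (3.74, adjusted p = 0.0337) and without Control gRNA untreated replicate 1 (4.80, adjusted p = 0.0255). These runs draw on the same few counts and add no support. The threshold is an adjusted p under 0.05 over all genes tested, and a gene past it is called changed.

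**Figure D1:**
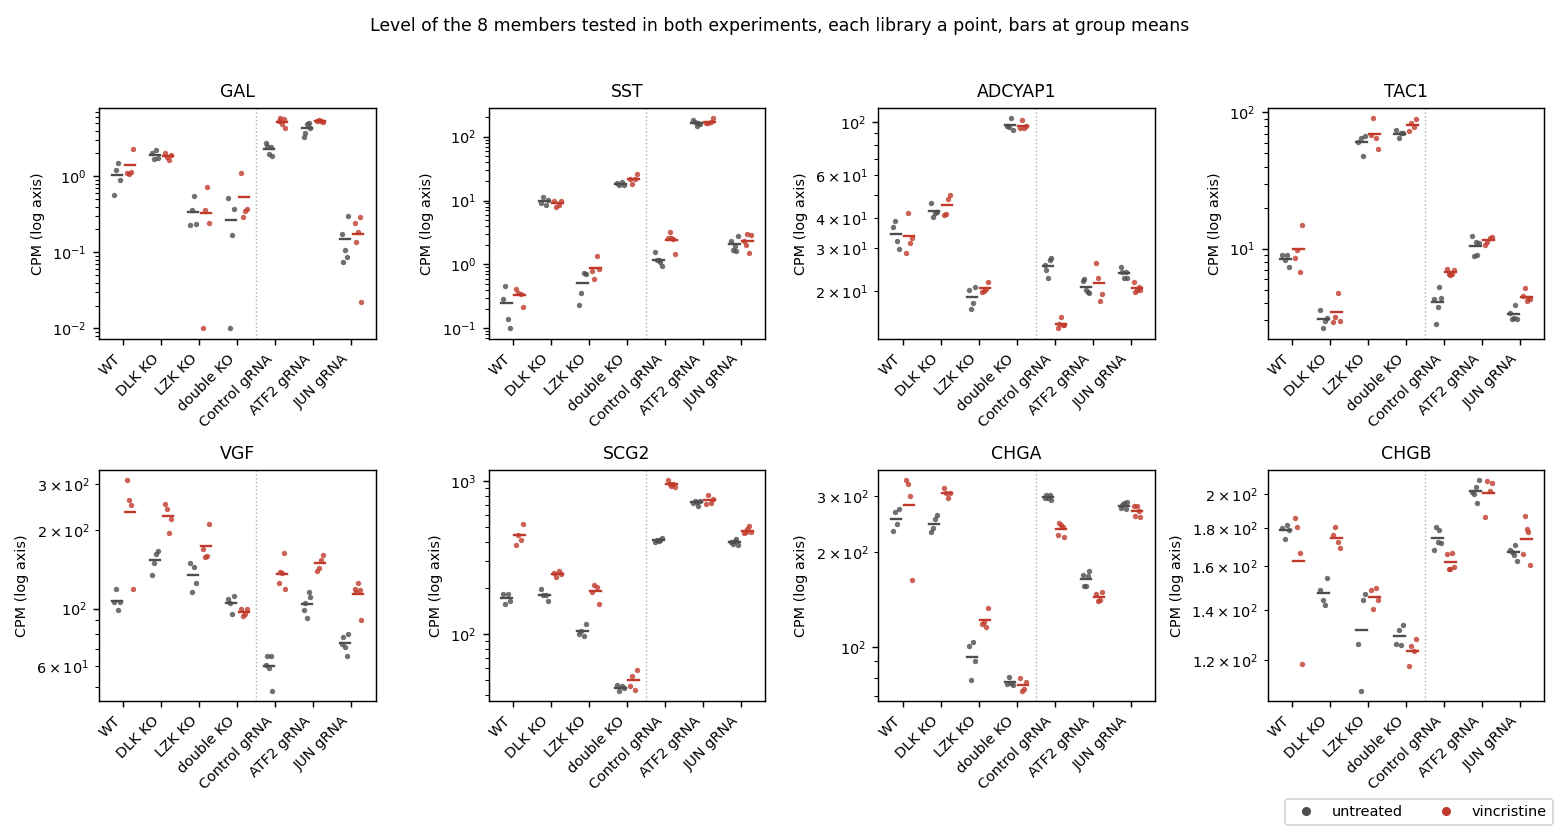
CPM (log axis) of the 8 members tested in both experiments, one panel a gene. Each point is a library, grey untreated and red vincristine, bars are group means, and the dotted line separates the experiments. In the GAL panel the 2 libraries with 0 counts are drawn at the bottom of the axis. SCG2 rises with vincristine in WT and Control gRNA, while SST differs between lines far more than between treatments.

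Vincristine raised SCG2 (secretogranin II, a vesicle-forming granin and the precursor of secretoneurin) and VGF (a granin-like precursor induced by neurotrophins) in WT neurons. In untreated WT libraries SCG2 stood at 184, 157, 184 and 165 CPM, and with vincristine at 385, 448, 412 and 528. The groups did not overlap, and the log2 fold change was 1.36 ± 0.09 (SE, edgeR's quasi-likelihood test, adjusted p = 1.21e-14). VGF stood at 106, 119, 98.5 and 106 CPM untreated and at 310.0, 262, 250.4 and 119 with vincristine. Its 3 first vincristine libraries lay above all untreated ones, and replicate 4, the library that stands apart, did not. VGF's log2 fold change was 1.14 ± 0.17 (adjusted p = 5.88e-06) with that library and 1.35 without it. These 2 of 8 members were called in WT, where 30.2% of all genes tested were called. The median log2 fold change of the 8 was 0.30, beside −1.89e-05 over all genes.

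The other granins, CHGA and CHGB, did not pass the threshold in WT. CHGA (chromogranin A) stood at 233 to 273 CPM untreated and at 337, 329, 300.4 and 163 with vincristine, a log2 fold change of 0.15 ± 0.12 (adjusted p = 0.397). Replicate 4 was again the low one, and without it the log2 fold change was 0.34 and passed the threshold (adjusted p = 9.01e-05). CHGB (chromogranin B) stood at 174 to 182 CPM untreated and at 185, 181, 167 and 119 with vincristine, with replicate 4 lowest. The log2 fold change of CHGB was −0.13 ± 0.085 (adjusted p = 0.253). The peptide genes GAL, SST, ADCYAP1 and TAC1 had log2 fold changes from −0.019 (ADCYAP1) to 0.45 (SST), and their groups overlapped. Without replicate 4 that of TAC1 was −0.019, against 0.23 with it.

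In the kinase knockouts the response of SCG2 was smaller. In DLK KO, 2 of 8 members rose (6.53% of all genes called). SCG2 went from 197, 182, 180.3 and 164 CPM to 252, 235, 258 and 249.8, a log2 fold change of 0.46 ± 0.09 (adjusted p = 0.00103). VGF went from 135, 149.6, 162 and 166 CPM to 252, 240.0, 195 and 221 (0.57 ± 0.17, adjusted p = 0.0379). The groups of SCG2 and of VGF did not overlap, but the call of VGF was lost when any of 7 of the 8 libraries was left out (all but vincristine replicate 3, adjusted p from 0.0503 to 0.127). CHGA (0.32 ± 0.12, adjusted p = 0.121) and CHGB (0.25 ± 0.085, adjusted p = 0.0742) also had groups that did not overlap, without passing the threshold. Each passed in 2 of 15 alternative runs, voom with quality weights and a fit of only the groups compared. The share of all genes whose groups do not overlap was not counted, here or in other comparisons, so non-overlap only describes these libraries.

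In LZK KO, 1 of 8 members rose (3.88% of all genes called). This was SCG2, from 100.3, 104, 97.8 and 116 CPM to 189.8, 211, 205 and 159 (0.87 ± 0.092, adjusted p = 2.16e-08). VGF (0.38 ± 0.17) and CHGA (0.38 ± 0.13) missed the threshold there. CHGA passed it in 3 of 15 alternative runs, with DESeq2 (adjusted p = 0.0497), with voom and quality weights, and with no filter.

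In the double KO, 0 of 8 members passed the threshold, where 12 of 18235 genes did (0.0658%). SCG2 stood at 46.3, 42.8, 45.6 and 44.8 CPM untreated and 46.3, 53.5, 42.9 and 58.8 with vincristine (0.17 ± 0.096). VGF stood at 95.5 to 112 CPM and at 93.9 to 99.5 (−0.12 ± 0.17). The groups of SCG2 and VGF overlapped. With edgeR 0 members had an unadjusted p under 0.05 there (lowest 0.0547, SST), and with DESeq2 and with voom 0 were called. In a fit of only the double KO libraries, 1028 of 16304 genes and 1 member passed, TAC1 (log2 fold change 0.23, adjusted p = 0.00410).

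Summed markers of other cell types also changed with vincristine in WT. In untreated WT each of these sums came mostly from a single gene. The 5 progenitor markers, all over 1 CPM in every group of experiment 1, summed to 734 to 775 CPM per untreated WT library and 923 to 1951 with vincristine. The sums went from 209 to 272 CPM to 489.7 to 602 in DLK KO, from 512 to 669 to 974 to 1168 in LZK KO, and in the double KO from 123 to 129.55 to 119.9 to 126. Nearly all of the sum in WT was NES, an intermediate filament gene (717 ± 19.8 CPM untreated and 1529 ± 449 with vincristine), while SOX2 stood at 22.4 ± 1.98 and 20.5 ± 3.48 CPM. The 6 peripheral or sensory markers summed to 461 to 495 CPM in untreated WT, most of it POU4F1, and 124 to 240.4 with vincristine. Their untreated and treated sums overlapped in each of the 3 knockout lines. In untreated DLK KO the progenitor sum lay below that of WT, while the SCG2 libraries overlapped those of WT. Such sums do not give shares of cells. The part of these cell types in the SCG2 and VGF values was not tested.

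The difference between lines was tested directly. The SCG2 response was smaller than in WT, by −0.90 ± 0.13 on the log2 scale in DLK KO. In LZK KO it differed by −0.49 ± 0.13 and in the double KO by −1.19 ± 0.13 (adjusted p = 2.19e-06, 0.00819 and 1.12e-08). For VGF these differences were −0.56 ± 0.23 (not called, adjusted p = 0.0938), −0.76 ± 0.24 (adjusted p = 0.0336) and −1.25 ± 0.24 (adjusted p = 3.31e-04). Without WT vincristine replicate 4 the VGF difference for DLK KO was −0.78 and passed the threshold (adjusted p = 7.31e-05), as did that of CHGA for the double KO (−0.37, adjusted p = 0.00326, against −0.18 ± 0.18 with it). CHGB responded higher in DLK KO than in WT by 0.38 ± 0.12 (adjusted p = 0.0236), a call lost without DLK KO vincristine replicate 2 (0.35, adjusted p = 0.0504). In all, 2 of 8 members differed for DLK KO (19.4% of all genes), 2 for LZK KO (12.4%), 2 for the double KO (19.4%) and 0 for the double KO minus DLK KO (1.14%). For that last difference VGF had −0.69 ± 0.24 and SCG2 −0.29 ± 0.13. With edgeR 3 of the 8 had an unadjusted p under 0.05 there, DESeq2 called 0, and voom with quality weights called 4 (VGF, SCG2, CHGA and CHGB, all lower). Of the calls against WT, that of VGF for LZK KO was the least firm. It was lost without any of 11 of 16 libraries (adjusted p from 0.0516 to 0.0854). When the fit held the 4 groups concerned alone, neither SCG2 (adjusted p = 0.0732) nor VGF (0.133) passed for LZK KO. The CHGB call for DLK KO was also lost in such a fit (adjusted p = 0.0586).

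In experiment 2, with deeper libraries, vincristine changed 8 of 9 members in Control gRNA neurons (35.3% of all genes), 5 higher and 3 lower. Their median log2 fold change was 0.72, beside 0.03 over all genes. SCG2 went from 399, 413, 409, 412 and 424 CPM to 1014, 964, 939, 955 and 926, a log2 fold change of 1.22 ± 0.035 (adjusted p = 2.93e-30). VGF went from 60.6, 65.6, 59.3, 65.7 and 48.4 CPM to 125, 138, 137, 163 and 119 (1.19 ± 0.094, adjusted p = 4.46e-11). GAL, a peptide known to rise in injured sensory neurons, went from 2.78, 2.54, 1.97, 2.42 and 1.85 CPM to 5.31, 5.79, 4.94, 5.6 and 4.35 (1.17 ± 0.22, adjusted p = 2.05e-05). For these 3 genes every vincristine library lay above every untreated one.

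TAC1 rose from 4.28, 2.78, 3.73, 5.22 and 4.33 CPM to 7.14, 6.56, 6.41, 6.54 and 6.95 in Control gRNA (0.72 ± 0.13, adjusted p = 7.31e-06), also without overlap. SST rose from 1.54, 1.19, 1.17, 1.08 and 0.942 CPM to 2.54, 3.19, 2.56, 2.48 and 1.44 (1.08 ± 0.21, adjusted p = 1.28e-04), and here vincristine replicate 5 lay within the untreated range. ADCYAP1, in contrast to the other peptide genes, fell from 25.5, 24.4, 22.7, 26.9 and 27.4 CPM to 14, 14.6, 15.6, 14.4 and 14.5 (−0.80 ± 0.076, adjusted p = 3.89e-12). CHGA fell from 293 to 304 CPM to 223 to 247 (−0.34 ± 0.036, adjusted p = 8.00e-11). The fall of CHGB was small, from 169 to 181 to 159 to 167 CPM (−0.11 ± 0.037, adjusted p = 0.0223), and its call was lost without any of 4 of the 10 libraries (untreated replicates 2 and 4, vincristine replicates 2 and 3, adjusted p from 0.0538 to 0.0780). In WT of experiment 1 the log2 fold changes of GAL, TAC1, ADCYAP1 and CHGA were 0.37, 0.23, −0.019 and 0.15, none called, and the experiments were not tested against each other.

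With ATF2 gRNA, vincristine left SCG2 near its untreated level. SCG2 stood at 725, 749, 739, 692 and 744 CPM untreated and at 706, 809.8, 721 and 771 with vincristine (0.044 ± 0.037, adjusted p = 0.599). That level is between those of the untreated and the treated Control gRNA libraries. Here 2 of 9 members were called (6.1% of all genes). VGF rose from 98.9, 105, 92.1, 116 and 111 CPM to 139.8, 143, 154 and 161 (0.51 ± 0.097), and CHGA fell from 156 to 175 to 140.3 to 149 CPM (−0.19 ± 0.038). GAL (0.32 ± 0.23), SST (0.058 ± 0.12), TAC1 (0.13 ± 0.13) and ADCYAP1 (0.055 ± 0.08) did not pass the threshold.

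With JUN gRNA, 3 of 9 members rose (15.9% of all genes). SCG2 went from 404, 387, 407, 421 and 385 CPM to 459, 466, 486, 508 and 466 (0.25 ± 0.035, adjusted p = 3.05e-07). VGF went from 65.8 to 80.1 to 90.1 to 126 CPM (0.63 ± 0.092) and TAC1 from 3.04 to 3.83 to 4.11 to 5.1 CPM (0.44 ± 0.13), and none of the 3 overlapped. ADCYAP1 (−0.21 ± 0.074, adjusted p = 0.0521), GAL (0.33 ± 0.35), SST (0.20 ± 0.18), CHGA (−0.058 ± 0.036) and CHGB (0.061 ± 0.037) missed the threshold. ADCYAP1 passed it without untreated replicate 5 or vincristine replicate 1 (adjusted p = 0.0389 and 0.0487) and with DESeq2 (0.0324).

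In experiment 2 the progenitor sum rose with vincristine beside SCG2 in Control gRNA and JUN gRNA. Between untreated lines it did not follow SCG2. The sum was lower with ATF2 gRNA than with Control gRNA, while SCG2 was higher with ATF2 gRNA. The sum ran from 1310.0 to 1400.2 CPM in untreated and 2431 to 2527 in treated Control gRNA libraries. With JUN gRNA the untreated and treated sums ran from 957 to 1079.7 and from 1656 to 1762 CPM. With ATF2 gRNA the untreated (738 to 815 CPM) and treated (696 to 805) sums overlapped. NES again made up most of it, at 1325 ± 39 CPM in untreated and 2432 ± 37.3 in treated Control gRNA. MKI67 and TOP2A, genes of dividing cells, were at most 2.93 CPM in any group mean of experiment 2. The peripheral or sensory sum was 589.6 to 609 CPM in untreated Control gRNA libraries and 272 to 293 with vincristine. It was also lower with vincristine in ATF2 gRNA (331 to 352 against 288.5 to 299 CPM) and JUN gRNA (528 to 556 against 409.9 to 455). The part of such cells in the members' values was not tested.

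**Figure D2:**
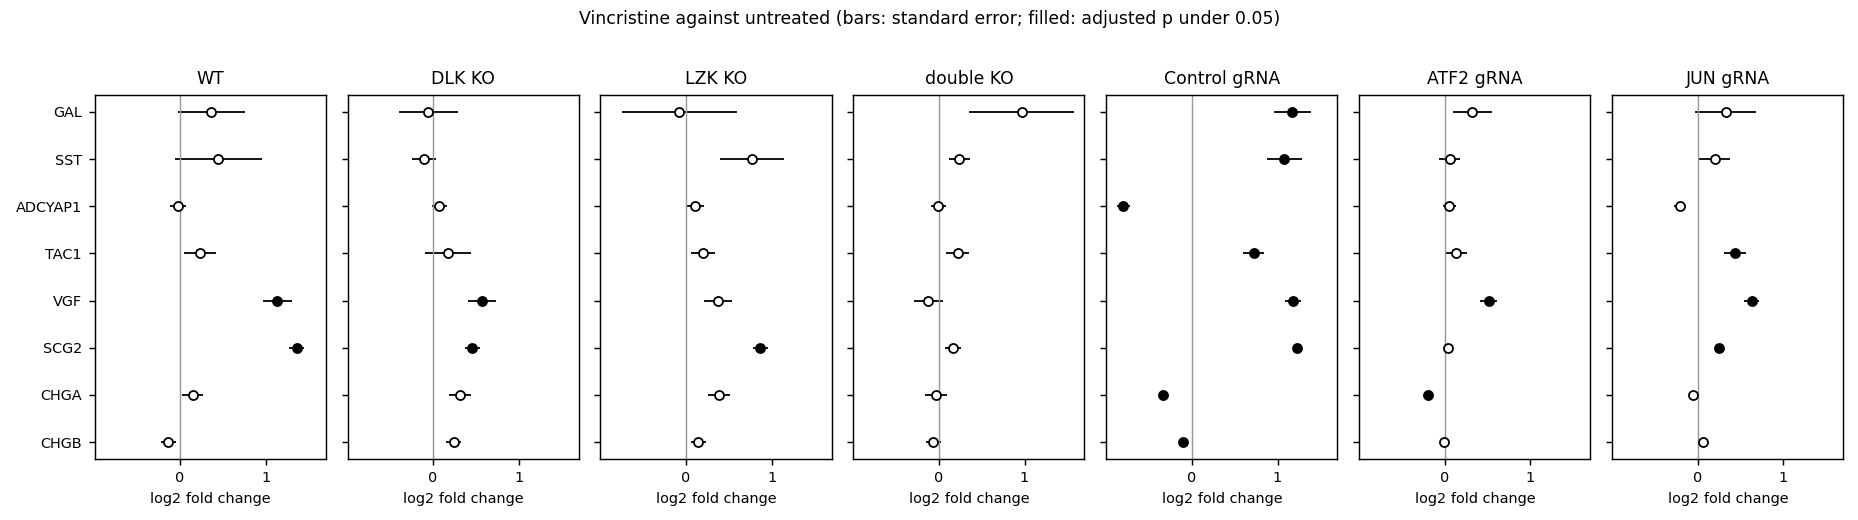
Log2 fold change of vincristine against untreated (horizontal axis, same range in all panels) for the 8 members in each of 7 lines. Bars are standard errors and filled points have an adjusted p under 0.05. SCG2 and VGF are filled in WT and Control gRNA, and no point is filled in the double KO.

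Tested directly, 7 of 9 responses differed between ATF2 gRNA and Control gRNA (20.6% of all genes) and 6 of 9 between JUN gRNA and Control gRNA (15.8%). These comparisons share the Control gRNA libraries. The SCG2 response was smaller by −1.18 ± 0.051 with ATF2 gRNA and by −0.97 ± 0.049 with JUN gRNA on the log2 scale (adjusted p = 7.28e-23 and 5.70e-20). The VGF differences were −0.67 ± 0.13 and −0.56 ± 0.13. The fall of ADCYAP1 was smaller, with differences of 0.85 ± 0.11 for ATF2 gRNA and 0.59 ± 0.11 for JUN gRNA. SST differed by −1.02 ± 0.24 and −0.88 ± 0.28, and CHGA by 0.15 ± 0.052 and 0.28 ± 0.051. The values for ATF2 gRNA compare ratios at unlike untreated levels, not rises in CPM. The SST mean went from 1.18 to 2.44 CPM with Control gRNA and from 165 to 172 with ATF2 gRNA. In the same order GAL went from 2.31 to 5.20 and from 4.25 to 5.33 CPM. TAC1 went from 4.07 to 6.72 and from 10.5 to 11.5 CPM, and VGF from 59.9 to 136 and from 105 to 149. Treated SCG2 was lower with ATF2 gRNA (752 against 959 CPM). TAC1 differed with ATF2 gRNA (−0.59 ± 0.18, adjusted p = 0.0144) and missed the threshold with JUN gRNA (−0.29 ± 0.18). GAL differed with ATF2 gRNA (−0.85 ± 0.31, adjusted p = 0.0471) and missed the threshold with JUN gRNA (−0.85 ± 0.42, adjusted p = 0.196), where it had only 1 to 17 counts per library. CHGB differed with JUN gRNA (0.17 ± 0.053) and missed the threshold with ATF2 gRNA (0.10 ± 0.055).

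Several of these calls are near the threshold. Leaving out any of 14 of the 19 libraries ended the GAL call for ATF2 gRNA (adjusted p from 0.0547 to 0.0913). Any of 10 of 19 ended that of CHGA for ATF2 gRNA (0.0546 to 0.121). With JUN gRNA, any of 5 of the 20 libraries ended the call of SST (0.0518 to 0.0649), and any of 5 that of CHGB (0.0533 to 0.0997). Between ATF2 gRNA and JUN gRNA, 1 of 9 responses differed (2.83% of all genes). This was SCG2, by −0.21 ± 0.051 (adjusted p = 0.0119), a call lost without ATF2 gRNA vincristine replicate 2 (0.0941) or 4 (0.0744) or JUN gRNA untreated replicate 5 (0.0566).

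In untreated neurons, differences between lines reached 7.13 on the log2 scale (SST, with ATF2 gRNA), while the largest called vincristine effect on a member was 1.36 (SCG2, in WT). Against WT, 5 of 8 members differed in DLK KO (34.5% of all genes), 6 of 8 in LZK KO (33.9%) and 7 of 8 in the double KO (45.7%). Against Control gRNA, 8 of 9 differed with ATF2 gRNA (39.9%) and 3 of 9 with JUN gRNA (11.2%). The WT and Control gRNA libraries are each shared by these comparisons.

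SST, the precursor of somatostatin, an inhibitory peptide of certain interneurons and endocrine cells, had the widest range. It stood at 0.287, 0.466, 0.14 and 0.0993 CPM in untreated WT (1 to 5 counts per library), at 9.09, 11.3, 8.49 and 10.1 in DLK KO and at 19.1, 17.5, 19.5 and 17.7 in the double KO. LZK KO overlapped WT at 0.227 to 0.74 CPM. The log2 fold changes were 5.26 ± 0.25 in DLK KO and 6.18 ± 0.23 in the double KO (adjusted p = 8.51e-19 and 1.89e-22), and 1.07 ± 0.47 in LZK KO (not called, adjusted p = 0.0945). The LZK KO difference passed without LZK KO untreated replicate 1 (adjusted p = 0.0471) or WT untreated replicate 2 (adjusted p = 0.0427). In experiment 2 SST stood at 1.54, 1.19, 1.17, 1.08 and 0.942 CPM with Control gRNA and at 184, 171, 146, 165 and 161 with ATF2 gRNA. The mean was 139.6 times higher, a log2 fold change of 7.13 ± 0.17 (adjusted p = 1.95e-22). JUN gRNA libraries lay at 2.32, 1.69, 1.92, 1.65 and 2.82 CPM, just above Control gRNA (0.80 ± 0.21, adjusted p = 0.0131).

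TAC1, the precursor of substance P and neurokinin A, was higher in the lines without LZK. It stood at 8.98, 8.29, 8.92 and 7.35 CPM in WT, at 60.8, 64.5, 48.2 and 67.3 in LZK KO and at 74.9, 64.7, 70.3 and 70.2 in the double KO. The log2 fold changes were 2.83 ± 0.17 and 3.05 ± 0.16 (adjusted p = 4.44e-15 and 2.61e-16), without overlap. In DLK KO it was lower, at 3.54, 2.59, 2.92 and 3.12 CPM (−1.46 ± 0.23, adjusted p = 5.39e-06). ATF2 gRNA libraries held 12.4, 8.88, 11.3, 9.02 and 10.9 CPM against 4.28, 2.78, 3.73, 5.22 and 4.33 with Control gRNA (1.36 ± 0.13, adjusted p = 1.33e-12). JUN gRNA did not pass the threshold (−0.31 ± 0.13), except without Control gRNA untreated replicate 2 (−0.41, adjusted p = 0.0269).

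ADCYAP1, the precursor of PACAP, a peptide known for neuroprotection, was highest in the double KO. It stood at 36.6, 38.9, 32.2 and 29.9 CPM in WT, 96, 94.9, 103 and 92.8 in the double KO and 20.2, 16.8, 17.9 and 20.8 in LZK KO. The log2 fold changes were 1.49 ± 0.089 in the double KO, −0.86 ± 0.098 in LZK KO and 0.32 ± 0.091 for DLK KO (adjusted p = 1.46e-16, 5.96e-09 and 0.00608). So the double KO and LZK KO lay on opposite sides of WT. Among the 20 tested genes nearest to ADCYAP1 on chromosome 18, 12 were higher in the double KO and 0 lower (median log2 fold change 0.77). In DLK KO 10 were higher and 0 lower. The neighbours also leaned higher where ADCYAP1 was lower. In LZK KO 5 were higher and 1 lower (median 0.22), and with ATF2 gRNA 6 of 20 were higher and 0 lower (median 0.29). The part of such shifts of neighbouring genes in the ADCYAP1 values was not tested. With ATF2 gRNA ADCYAP1 was lower by −0.29 ± 0.075 on the log2 scale, and with JUN gRNA the difference was −0.10 ± 0.074 (not called).

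GAL was the member most reduced with JUN gRNA. It stood at 2.78, 2.54, 1.97, 2.42 and 1.85 CPM with Control gRNA and at 0.172, 0.0757, 0.107, 0.0874 and 0.298 with JUN gRNA (4 to 15 counts per library), a log2 fold change of −3.99 ± 0.29 (adjusted p = 6.27e-15). ATF2 gRNA libraries were on the other side, at 3.29, 3.74, 4.91, 4.99 and 4.35 CPM (0.89 ± 0.22, adjusted p = 8.64e-04). In experiment 1 GAL was near the limit of detection, with 6 to 21 counts per WT library, 2 to 6 in LZK KO and 0 to 5 in the double KO. The log2 fold changes were −1.55 ± 0.51 and −2.05 ± 0.53 (adjusted p = 0.0177 and 0.00149), and 0.84 ± 0.37 in DLK KO (not called, adjusted p = 0.0753). The LZK KO call was lost without LZK KO replicate 1 (0.0544) or 4 (0.0516) or WT replicate 3 (0.0800), and DLK KO passed without WT replicate 3 (1.10, adjusted p = 0.0457).

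Among the granins, SCG2 and CHGA were lower in the lines without LZK. SCG2 fell from 157 to 184 CPM in WT to 97.8 to 116 in LZK KO (−0.72 ± 0.091, adjusted p = 5.78e-08) and to 42.8 to 46.3 in the double KO (−1.94 ± 0.095, adjusted p = 5.55e-19). CHGA was lower at 101, 78.5, 104 and 89.9 CPM in LZK KO and 76.3, 80.4, 77 and 75.5 in the double KO, against 233, 267, 246 and 273 in WT. Its log2 fold changes were −1.45 ± 0.13 and −1.72 ± 0.13 (adjusted p = 2.20e-10 and 2.67e-12). DLK KO libraries overlapped WT for SCG2 (0.068 ± 0.09) and CHGA (−0.049 ± 0.12). In DLK KO, 17 of the 20 tested genes nearest to SCG2 on chromosome 2 were lower and 0 higher (median −1.08), and SCG2 was not. CHGB was lower in all 3 knockouts by a small amount (−0.28 ± 0.085 for DLK KO, −0.44 ± 0.086 for LZK KO, −0.47 ± 0.085 for the double KO). VGF was higher in DLK KO (0.51 ± 0.17, adjusted p = 0.0179), and in LZK KO (0.32 ± 0.17) and the double KO (−0.025 ± 0.17) it missed the threshold.

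With ATF2 gRNA the granins split. SCG2 was higher at 725, 749, 739, 692 and 744 CPM against 399, 413, 409, 412 and 424 with Control gRNA (0.83 ± 0.035, adjusted p = 2.13e-24), as were VGF (0.80 ± 0.093) and CHGB (0.21 ± 0.037). CHGA was lower at 169, 156, 157, 167 and 175 CPM against 297, 303, 296, 304 and 293 (−0.86 ± 0.036, adjusted p = 2.05e-24). For each of these 4 genes the libraries did not overlap. The 4 chromaffin or catecholamine markers summed to 702 to 747 CPM with ATF2 gRNA and 275 to 303 with Control gRNA, but only CHRNA3, a nicotinic receptor subunit, was over 1 CPM, and TH was at 0 counts with ATF2 gRNA. So of the 3 genes with the full element, SST and VGF were higher with ATF2 gRNA and CHGA was lower. With JUN gRNA VGF was higher by 0.30 ± 0.093 (adjusted p = 0.037), a call lost without any of 6 of the 10 libraries (0.0526 to 0.103). SCG2 (−0.037 ± 0.035), CHGA (−0.089 ± 0.036) and CHGB (−0.063 ± 0.037) were not called.

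**Figure D3:**
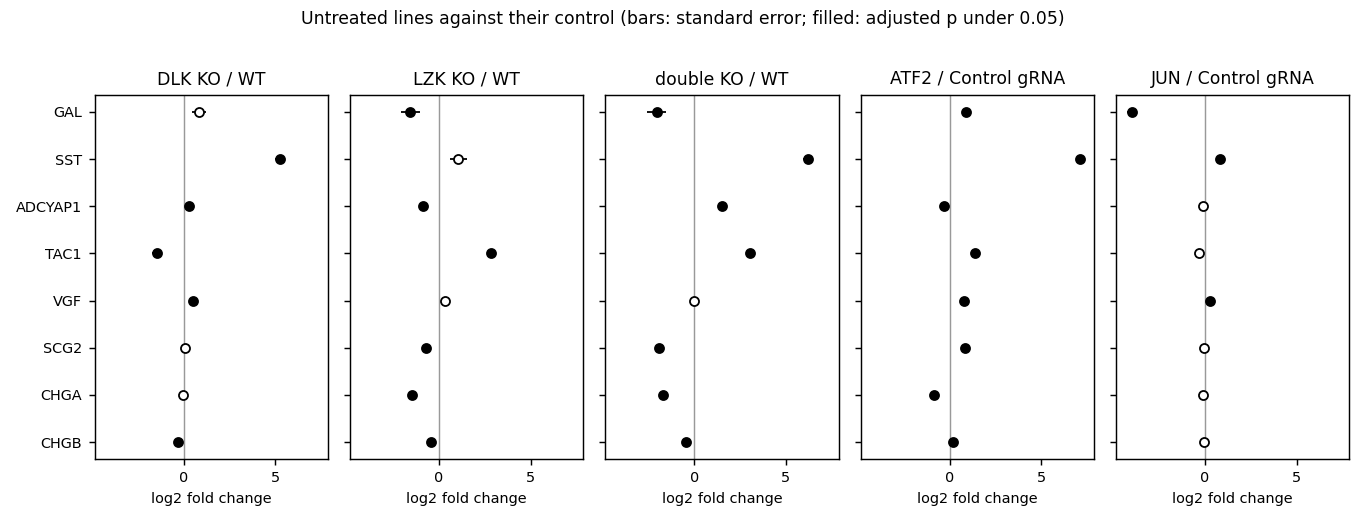
Log2 fold change of untreated lines against their control line (horizontal axis, same range in all panels) for the 8 members. Bars are standard errors and filled points have an adjusted p under 0.05. SST lies at 5.26, 6.18 and 7.13 in DLK KO, double KO and ATF2 gRNA, and GAL at −3.99 with JUN gRNA.

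Markers of GABA neurons, the cells in which SST is best known, moved with SST in some lines. With ATF2 gRNA the vesicular GABA transporter SLC32A1 stood at 12.7 ± 1.54 CPM (SD, n = 5) against 0.378 ± 0.442 with Control gRNA. The GABA-making enzymes stood at 8.88 ± 0.752 against 0.435 ± 0.207 CPM for GAD2 and 2.73 ± 0.448 against 0.248 ± 0.251 for GAD1. In the double KO GAD1 stood at 5.38 ± 0.404 CPM and GAD2 at 2.68 ± 0.587, against 0.316 ± 0.283 and 0.416 ± 0.112 in WT (SD, n = 4). The summed level of the 7 markers ran from 1.71 to 31.4 CPM over the groups of experiment 2 and from 2.10 to 11.3 over those of experiment 1, with at most 4 of 7 over 1 CPM in any group. Of the interneuron factors, DLX5 and DLX1 were under 1 CPM in all groups. DLX2 or LHX6, also on the list, was over 1 CPM in untreated ATF2 gRNA, double KO, DLK KO and LZK KO. In untreated WT, Control gRNA and JUN gRNA 0 of 7 markers were over 1 CPM. With vincristine 1 of 7 was in WT and in Control gRNA. In DLK KO, where SST was also higher than in WT, GAD1 stood at 1.79 ± 0.85 CPM, GAD2 at 0.491 ± 0.199 and SLC32A1 at 0.677 ± 0.0975 (WT 0.304 ± 0.258), so its GAD2 range overlapped that of WT. In LZK KO GAD1 stood at 2.51 ± 0.369 CPM with SST at 0.509 ± 0.254. The part of such cells in the SST values was not tested.

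The receptors of somatostatin also differed between lines. SSTR3 stood at 19.6 CPM with ATF2 gRNA against 0.637 with Control gRNA (4.94 ± 0.17, adjusted p = 1.81e-27). SSTR2 was higher there by 0.75 ± 0.057 on the log2 scale. In the double KO SSTR1 stood at 11.4 CPM against 0.788 in WT (3.86 ± 0.29, adjusted p = 5.32e-14). In DLK KO it was SSTR2 that differed most among these 3 receptors, at 46.4 ± 1.91 CPM against 8.46 ± 0.734 (2.45 ± 0.083, adjusted p = 3.34e-23), and SSTR3 was higher too (2.10 ± 0.45). SSTR3 was also higher with JUN gRNA (2.32 ± 0.18), where the SST difference was 0.80.

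**Figure D4:**
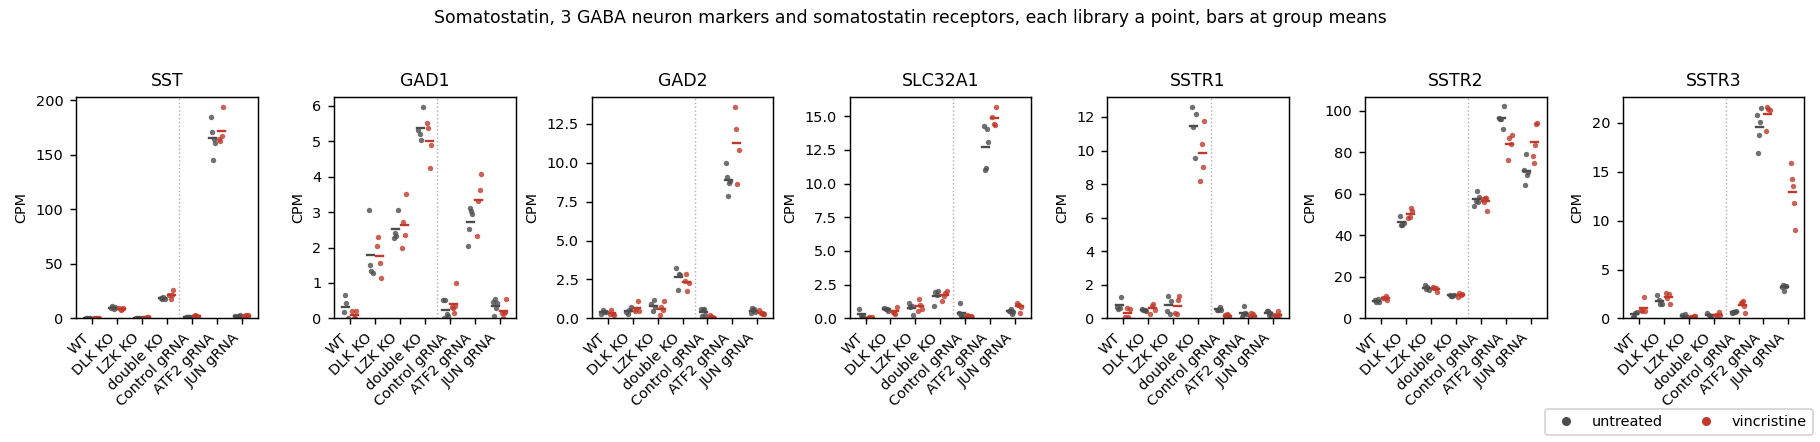
CPM (linear axis, each panel its own range) of SST, of the GABA neuron markers GAD1, GAD2 and SLC32A1, and of the somatostatin receptors SSTR1, SSTR2 and SSTR3. Each point is a library, grey untreated and red vincristine, bars are group means, and the dotted line separates the experiments. SST, GAD2, SLC32A1 and SSTR3 are highest with ATF2 gRNA, and GAD1 and SSTR1 in the double KO.

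Other genes of the peptide pathway were called in both directions with vincristine, at shares to be read against those of all genes. Of 22 genes for peptide processing and dense core vesicles, 4 were higher and 2 lower in WT, and 8 were higher and 8 lower in Control gRNA, where 30.2% and 35.3% of all genes were called. The median log2 fold change of the list was −0.05 in WT and −0.04 in Control gRNA, beside −1.89e-05 and 0.03 over all genes tested. INSM1, a transcription factor of neuroendocrine cells, rose in WT (1.95 ± 0.18) and Control gRNA (1.27 ± 0.054), and in the double KO stood at 0.061 ± 0.24 (not called). SYT11, a vesicle protein, rose in WT (0.67 ± 0.051), as did HID1 (0.40 ± 0.096) and PAM (0.29 ± 0.055), the enzyme that amidates peptides, while CPE, a carboxypeptidase that trims peptides, fell (−0.25 ± 0.048), as did VPS13A (−0.24 ± 0.071). CADPS2, among the largest fold changes of the list in WT, was not called (−0.56 ± 0.31).

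In Control gRNA the convertase PCSK1, which cuts precursors, fell from 94.3 to 53.4 CPM (−0.82 ± 0.045). RAB27B (−0.56 ± 0.14), RAB3A (−0.55 ± 0.041), CADPS2 (−0.54 ± 0.16), CPE (−0.42 ± 0.028) and PTPRN2 (−0.38 ± 0.048) fell too. PTPRN, a vesicle membrane protein, rose (0.85 ± 0.053), as did QPCT (1.70 ± 0.57, from 0.306 to 1 CPM), HID1 (0.69 ± 0.062), SYT4 (0.45 ± 0.042) and CCDC186 (0.40 ± 0.14). INSM1 and SYT11 (0.32 ± 0.033) rose as in WT, SCG3 rose (0.18 ± 0.046), and SCG5 (−0.19 ± 0.061) and CADPS (−0.37 ± 0.028) fell. In the double KO 0 of the 22 were called with edgeR (1 with an unadjusted p under 0.05), against 5 in DLK KO, 5 in LZK KO, 5 with ATF2 gRNA and 9 with JUN gRNA. The shares of all genes called were 0.0658% in the double KO, 6.53% in DLK KO, 3.88% in LZK KO, 6.1% with ATF2 gRNA and 15.9% with JUN gRNA.

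Of other neuropeptide precursors, 14 passed the filter in experiment 1 and 19 in experiment 2. In WT 5 rose and 0 fell, and in Control gRNA 6 rose and 1 fell, shares near the 30.2% and 35.3% of all genes called. ADM2 (adrenomedullin 2) went from 1.8 to 21 CPM in WT (3.55 ± 0.22) and from 14.1 to 38.7 in Control gRNA (1.46 ± 0.11). In WT CALCB (1.92 ± 0.41), UCN2 (1.29 ± 0.45), NPPC (1.25 ± 0.25) and TRH (0.93 ± 0.22) rose from low levels. In Control gRNA PTHLH (3.80 ± 0.90), CALCB (2.90 ± 1.08), NPPC (1.49 ± 0.54) and UCN (1.22 ± 0.30) rose, all under 2 CPM, and the enkephalin precursor PENK fell (−1.50 ± 0.33). NTS rose (0.41 ± 0.086), and PYY was not called (1.82 ± 1.21). In the double KO 0 of 14 were called with edgeR (1 with an unadjusted p under 0.05).

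Of the receptors of the member peptides, 11 passed in experiment 1 and 13 in experiment 2. In WT 1 rose and 3 fell. The PACAP receptor ADCYAP1R1 fell from 104 to 68.2 CPM (−0.61 ± 0.10), the galanin receptor GALR1 fell (−0.55 ± 0.12), as did TACR3 (−1.02 ± 0.33), and SSTR3 rose (1.43 ± 0.48). SSTR1 missed the threshold (−1.17 ± 0.53). In Control gRNA 3 rose and 2 fell. Here too the shares called were near those of all genes (30.2% and 35.3%). ADCYAP1R1 fell there as well (−1.01 ± 0.052), beside its ligand gene, and SSTR1 fell (−1.79 ± 0.72). TACR3 (2.19 ± 0.63), SSTR3 (1.12 ± 0.19) and GALR1 (0.28 ± 0.098) rose, GALR1 thus with GAL. GALR2 was not called (1.46 ± 1.07).

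For SST and SCG2, among the 3 members with the widest range of group means, the genes with the most similar pattern were sought over the 14 group means among 12804 genes, by Pearson's r of centred log2 levels. For SST these were C9orf16 (r = 0.95), SEMA3C and RGS4. For SCG2 they were LINC00339 (0.97), COLGALT2 and ZBTB7C. The points share lines and libraries, so these values only describe these 14 groups.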

How the data were processed

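Raw counts per gene were deposited by the authors in 1 table per experiment. Per the labels' protocols, libraries were poly(A)-selected with a stranded kit. Per the submitters' processing notes, cutadapt 3.4, STAR and featureCounts (Subread 2.0.1) were used on GRCh38. The annotation release, the strand setting and the handling of marked duplicates are not given in the sources used here. Symbols were matched through GENCODE 29 (58275 of 58440 identifiers), and 0 columns were left unused. Each experiment was filtered with filterByExpr (18235 and 20759 genes left), scaled by TMM and tested by edgeR's quasi-likelihood test (edgeR 4.0.16, R 4.3.3), with 1 mean per group. P-values are 2-sided with Benjamini-Hochberg adjustment over all tested genes and called under 0.05. The standard error (SE) is the size of the log2 fold change over the root of F. Levels per kilobase use the length column of the tables. Median depth was 10.3 and 53.5 M counts, so few counts limit GAL, SST, NPY and VIP in experiment 1. Alternatives used DESeq2 1.42.0, limma 3.58.1 voom, RLE factors, other filters, a replicate block, only the groups compared, and each library left out. Members and lists were chosen with earlier results of these data known. Named list genes are those called and the 3 largest fold changes per list in WT and Control gRNA. The fits were tested on simulated data. Some results are not reported here.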

Additional observations from a re-analysis of the deposited data

Results flagged for a closer look

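Each tested member was checked in each group of 4 or 5 libraries, 118 cases in all. In 6 of these a library lay far from the others by Dixon's test, which is about the 1 in 20 that chance flags. GAL stood at 1.10 CPM in DLK LZK double KO vincristine replicate 1 (the others at 0.291 to 0.375) and at 2.26 CPM in WT vincristine replicate 4 (the others at 1.08 to 1.13). NPY stood at 0.0784 CPM in JUN gRNA untreated replicate 1 (the others at 0). SST stood at 194 CPM in ATF2 gRNA vincristine replicate 5 (the others at 162.5 to 167.2). TAC1 stood at 4.72 CPM in DLK KO vincristine replicate 3 (the others at 2.91 to 3.16). VGF stood at 90.1 CPM in JUN gRNA vincristine replicate 5 (the others at 116.1 to 125.8).

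In 20 cases the vincristine response of a member differed between lines by the interaction test. For SCG2, against WT, the difference was −0.90 for DLK KO, −0.49 for LZK KO and −1.19 for the double KO. Against Control gRNA it was −1.18 with ATF2 gRNA and −0.97 with JUN gRNA, and −0.21 for ATF2 gRNA minus JUN gRNA. For VGF it was −0.76 in LZK KO, −1.25 in the double KO, −0.67 with ATF2 gRNA and −0.56 with JUN gRNA. ADCYAP1 differed by 0.85 with ATF2 gRNA and 0.59 with JUN gRNA, SST by −1.02 and −0.88, and CHGA by 0.15 and 0.28. GAL (−0.85) and TAC1 (−0.59) differed with ATF2 gRNA. CHGB differed by 0.38 in DLK KO and by 0.17 with JUN gRNA.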

How the results depend on the processing

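No pairing by replicate number was seen in the deviations of libraries from their group, which does not show how the libraries were prepared. Same-numbered libraries had a median correlation of deviations of −0.000258 in experiment 1 and −0.0032 in experiment 2, and 3 of 32 and 4 of 29 libraries correlated best with their own number. With the replicate block the count of members called for vincristine in DLK KO went from 2 to 1 (VGF, adjusted p = 0.0535). The block also ended the GAL (0.0690) and CHGA (0.0590) calls for ATF2 gRNA minus Control gRNA, gained NPY for untreated ATF2 gRNA (0.0308) and changed no other call. Of 67 called values, 0 reversed under any alternative run, and of their 1255 values under alternatives 86 missed the threshold. With no filter the members called were 1 for DLK KO, 2 for LZK KO and 1 for the LZK KO difference from WT. DESeq2 gave 2 for LZK KO. Voom with quality weights gave 4 for DLK KO, 2 for LZK KO and 4 for double KO minus DLK KO. Fitting only the groups compared gave 4 for DLK KO, 1 for the double KO, 1 for the DLK KO and 0 for the LZK KO difference from WT, 4 for double KO minus DLK KO and 0 for ATF2 gRNA minus JUN gRNA. Leaving out each library in turn gave 1 to 2 members for DLK KO, 1 to 3 for the DLK KO and 1 to 2 for the LZK KO difference from WT, and 0 to 1 for ATF2 gRNA minus JUN gRNA. Over all 160 values of the members, it turned the sign of 23, all uncalled. Of these the text gives 4, ADCYAP1 for vincristine in WT (−0.135 to 0.0548) and with ATF2 gRNA (−0.0419 to 0.135), TAC1 for vincristine in WT (−0.0185 to 0.391, and −0.0362 with voom) and VGF between untreated double KO and WT (−0.0712 to 0.0270). Raw library totals in place of TMM moved 15 of 140 levels by more than 1 SD. The causes were not tested.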
